A study of Mus musculus with 12 samples.

Results

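The genes described are 9 potassium channel genes that carry or shape the repolarizing currents of the mouse ventricle: Kcnd3, Kcnip2, Kcna5, Kcnv2, Kcnh2, Kcnq1, Kcne1, Kcnj2 and Kcnj11. They were taken by gene symbol from a count table of 56748 genes, and all 9 were present and passed the filter on low counts, which left 15742 genes for testing. The table holds RNA-seq read counts from the left ventricle of wild-type C57BL/6J mice, 14 days after surgery, in 3 groups of 4 libraries. Before surgery AAV9, an adeno-associated virus used to carry genes into the heart, was given to every mouse through the tail vein. Sham libraries carried the control vector (AAV9-Ctrl) without infarction. Infarcted libraries carried either the same control vector or a vector that overexpresses the transcription factor Irx3 (AAV9-Irx3), and their myocardial infarction (MI) was made by tying off the left anterior descending (LAD) coronary artery. The design names no group with the Irx3 vector and sham surgery, so the vector could be compared only between infarcted hearts. Not given in the sources used here are the promoter of the vectors, the age and sex of the mice and the part of the ventricle sampled. The design gives 4 samples per group from mice but does not spell out that each library is a separate mouse, so p-values measure the spread between these libraries.

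After each beat the cardiomyocyte is returned to its resting voltage by potassium leaving the cell through several channels that open at different times. In the mouse ventricle the early phase is carried by the fast transient outward current, whose pores are built from Kv4.2 (Kcnd2) and Kv4.3 (Kcnd3) with the accessory protein KChIP2 (Kcnip2), together with delayed rectifiers such as Kv1.5 (Kcna5). The slow rectifier KCNQ1 with its subunit KCNE1 and the rapid rectifier ERG (Kcnh2) dominate in larger mammals. Kir2.1 (Kcnj2) holds the resting potential, and Kir6.2 (Kcnj11) forms the ATP-sensitive channel with a sulfonylurea receptor. Lower expression of several of these channels is a known feature of electrical remodelling in diseased myocardium, and Irx3 and other Iroquois factors are known regulators of the conduction system and of the gradient of transient outward current across the ventricular wall.

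Library totals ranged from 13352604 to 19236721 counts. Irx3 itself was at 24.5 ± 2.65 CPM (the read count normalised to library size, mean ± SD, n = 4) in sham, 23.1 ± 6.89 after infarction with the control vector and 393 ± 111 with the Irx3 vector, which matches the labels. Counts from the vector and from the mouse gene are not separated in the table. Although the labels give cardiomyocytes as the cell type, the libraries behaved as ventricular tissue: summed CPM of 8 fibroblast markers ranged from 634 to 816.3 in sham, 13040 to 36190 after infarction with the control vector and 3765 to 25210 with the Irx3 vector, and all 8 macrophage markers were higher in both infarcted groups than in sham. Summed CPM of 14 cardiomyocyte markers ran from 116500 to 134400 in sham, 35720 to 80250 after infarction with the control vector and 39600 to 69330 with the Irx3 vector. In bulk tissue, fewer cardiomyocytes and less channel RNA per cardiomyocyte cannot be told apart. The 5 atrial markers summed to at most 83.7 CPM in any library, and in sham nearly all of this was Kcnj3, at a mean of 76.2 CPM. Another of them, Myl4, was at 1.65 CPM in sham, 8.77 after infarction with the control vector and 3.29 with the Irx3 vector. Replicate 4 of the infarcted group with the control vector stood apart, with the lowest cardiomyocyte and the highest fibroblast marker level of the 12 libraries. Replicate 1 of that group stood apart in skeletal muscle markers, with 3025 counts of Myh1 against at most 120 in any other library. Without it Kcne1 after infarction (0.96, adjusted p = 0.0854) was the 1 member call that changed in the 3 comparisons. The share of mitochondrially encoded counts was 4.50 to 8.22% in sham, 0.926 to 5.64% after infarction with the control vector and 10.4 to 19.0% with the Irx3 vector.

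Kcnd3, Kcnj2 and Kcna5 were the members called different between the vectors, and since Irx3 binds DNA their promoter windows are shown first. RefSeq holds a promoter window for 5 of the 9 members on build GRCm38.p6, an earlier build than the one used for the counts. Printed are the 250 bases before the annotated start, 5′ to 3′ on the gene's strand, at chr3:105451640-105451889 (plus strand) for Kcnd3, chr11:111065914-111066163 (plus) for Kcnj2 and chr6:126535556-126535805 (minus) for Kcna5. Capitals mark GC boxes (GGGCGG or its reverse complement CCGCCC), a motif searched after the expression values had been seen.
Kcnd3: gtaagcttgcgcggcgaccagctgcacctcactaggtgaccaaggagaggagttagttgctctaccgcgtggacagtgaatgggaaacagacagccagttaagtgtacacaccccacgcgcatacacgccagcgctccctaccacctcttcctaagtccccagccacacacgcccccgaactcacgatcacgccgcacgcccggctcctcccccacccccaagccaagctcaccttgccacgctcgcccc
Kcnj2: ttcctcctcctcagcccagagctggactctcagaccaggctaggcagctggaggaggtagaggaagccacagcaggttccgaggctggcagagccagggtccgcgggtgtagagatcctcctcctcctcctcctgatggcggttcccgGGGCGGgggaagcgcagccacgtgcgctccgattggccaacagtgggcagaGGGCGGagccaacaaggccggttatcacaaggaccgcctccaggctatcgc
Kcna5: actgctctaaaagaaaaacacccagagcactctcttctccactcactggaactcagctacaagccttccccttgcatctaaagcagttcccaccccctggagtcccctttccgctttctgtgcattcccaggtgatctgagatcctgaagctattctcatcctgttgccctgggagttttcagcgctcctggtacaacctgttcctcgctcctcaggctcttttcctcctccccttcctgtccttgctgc
The palindromic element ACANNTGT, described for Iroquois proteins, was in 0 of the 5 member windows and in 6.31% of the 32851 windows of the table, read on both strands. No match says only that these letters are not in this window. GC boxes were in 3 of the 5 windows, with 2 in Kcnj2, 2 in Kcnip2, 3 in Kcnh2 and none in Kcnd3 or Kcna5, against 32.7% of all windows. The windows of Kcnd3, Kcnj2 and Kcna5 were 62.8, 65.6 and 53.2% G and C.

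The order of the genes by level was read per kilobase of exon. In sham hearts Kcnip2 (89.1 CPM per kilobase) and Kcnj11 (82.5) led and their ranges overlapped. They were followed by Kcnh2 (53.6), Kcna5 (30.2), Kcnq1 (16.8), Kcnj2 (6.18), Kcnv2 (6.02), Kcnd3 (2.50) and Kcne1 (0.963). Of the 8 neighbouring pairs in that order, only Kcnip2 with Kcnj11 and Kcnj2 with Kcnv2 overlapped in their 4 libraries. After infarction with the control vector the order was less distinct. Kcnj11 (39.2 CPM per kilobase), Kcnip2 (26.4), Kcnh2 (19.6) and Kcna5 (15.0) were at the top and Kcnd3 (0.812) and Kcnv2 (0.269) at the bottom, and only Kcnq1 with Kcne1 and Kcnd3 with Kcnv2 were neighbours that did not overlap. With the Irx3 vector the order began with Kcnj11 (29.2), Kcnh2 (19.1), Kcnip2 (15.1) and Kcnq1 (10.8), Kcna5 (6.49) was below Kcnq1, and only Kcnd3 (2.55) and Kcnv2 (0.353) did not overlap as neighbours. The differences between neighbours in these orders were not tested.

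**Figure D1:**
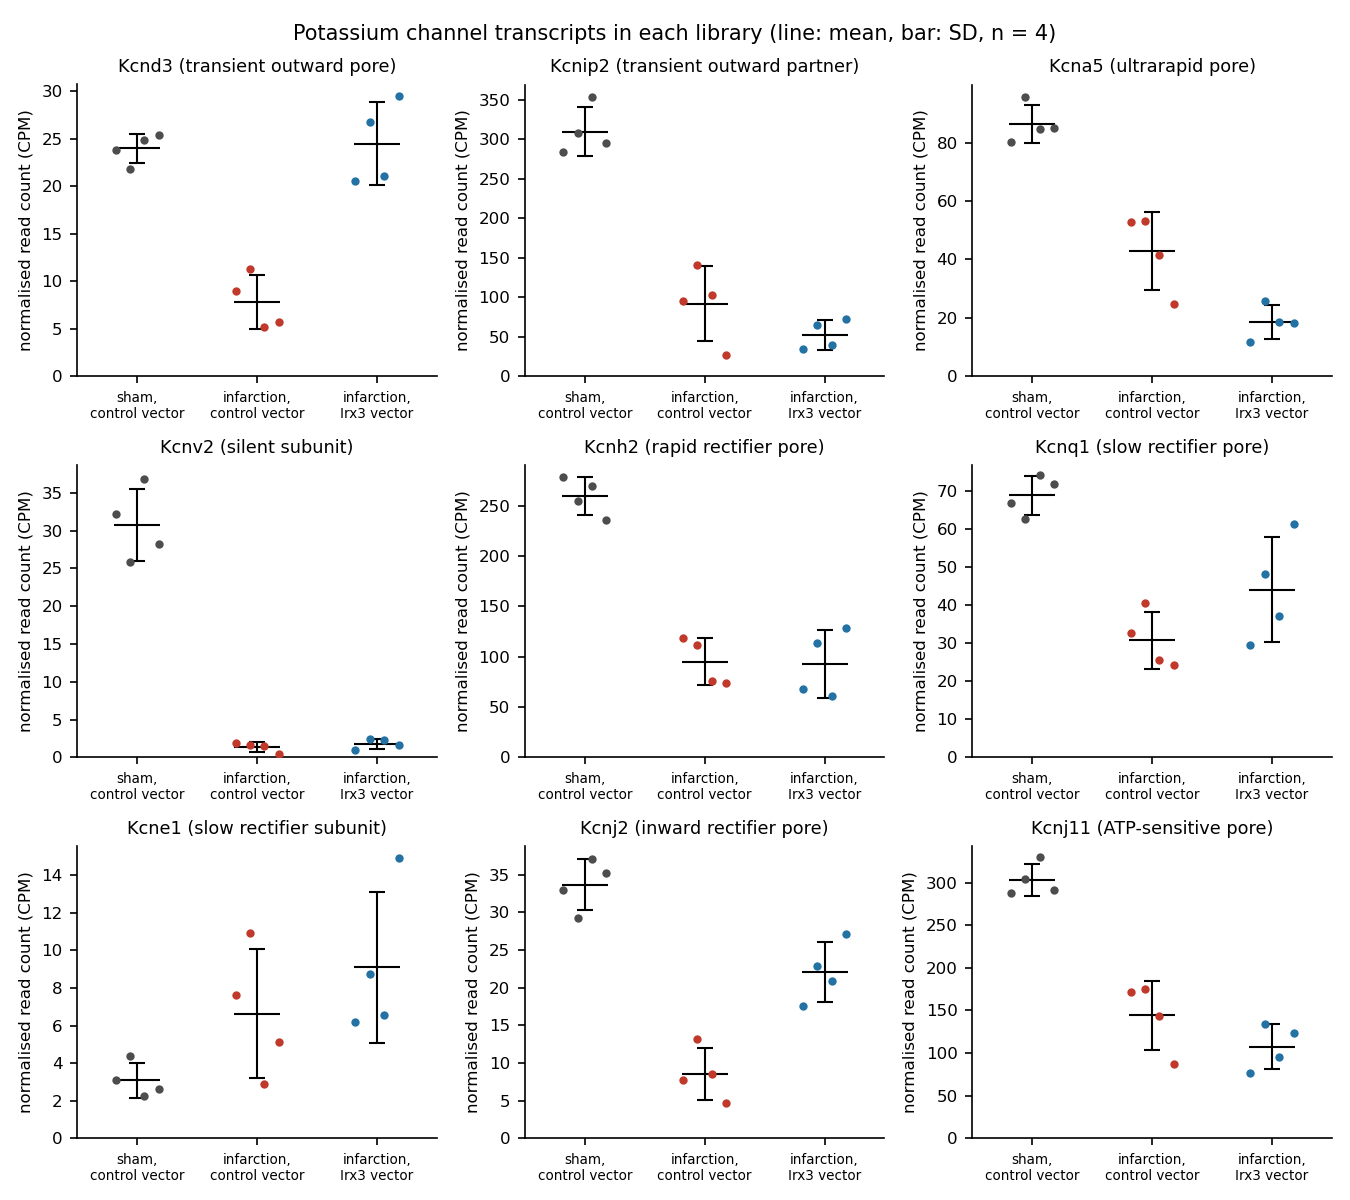
Normalised read count (CPM) of the 9 potassium channel genes in each library, by group, with a horizontal line at the mean and a bar for the SD (n = 4); each panel has its own axis from 0. All infarcted libraries lie below all sham libraries for Kcnip2, Kcna5, Kcnv2, Kcnh2, Kcnq1, Kcnj2 and Kcnj11, while Kcnd3 is low only in the infarcted group with the control vector.

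The first comparison asked how infarction changed these genes under the control vector. Of the 9 members, 8 were lower and 1, Kcne1, was higher than in sham (adjusted p under 0.05), against 48.7% of all genes tested called, 22.4% lower and 26.3% higher. Their median log2 fold change was -1.45, and that of all genes was 0.01. When libraries were instead scaled so that the cardiomyocyte markers were equal, 3 of the 8 were called lower (2.07% of all genes), Kcne1 was still higher (69.1%, of 71.2% called), and Kcna5 and Kcnj11 changed sign to 0.06 and 0.01. After GC correction all 9 calls held, against 53.3% of all genes. The 2 groups did not overlap in any library for 8 of the 9 members, Kcne1 being the exception, against 47.3% of all genes.

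The genes of the fast transient outward current, Kcnd3, Kcnip2 and Kcnd2, each fell after infarction. Kcnd3, the pore, was at 23.9, 21.9, 24.8 and 25.4 CPM in the sham libraries and at 8.95, 11.3, 5.24 and 5.68 CPM in the infarcted ones. The highest infarcted library lay well below the lowest sham library, and the log2 fold change was -1.62 (SE 0.22, adjusted p = 0.000121). Kcnip2, which sets the surface expression and gating of Kv4 channels, was at 283, 308, 353 and 295 CPM in sham and at 95.2, 141, 103 and 27.6 CPM after infarction, for which the log2 fold change was -1.75 (SE 0.38, adjusted p = 0.00212). Its lowest value came from replicate 4, the library with the fewest cardiomyocyte transcripts. Kcnd2, the partner pore, went from 30.0 ± 3.18 to 11.3 ± 3.49 CPM (SD, n = 4), with a log2 fold change of -1.40 and adjusted p = 0.00137. Kcnd3os, which lies antisense to Kcnd3, had 1.79 CPM in sham and 0.487 after infarction (log2 fold change -1.85, adjusted p = 0.00668). Whether counting used the strand is not given in the sources used here, so reads of Kcnd3 and Kcnd3os may not be separated.

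Kcnv2 had the largest change of the members. It encodes Kv8.2, a silent subunit that forms no channel alone and modifies other voltage-gated channels. The sham libraries held 32.2, 25.9, 36.8 and 28.2 CPM (405 to 539 counts), and the infarcted ones 1.90, 1.65, 1.54 and 0.413 CPM (8 to 37 counts). No library of the infarcted group came near the sham range: the group mean was 4.48% of that in sham, with a log2 fold change of -4.48 (SE 0.37, adjusted p = 1.05e-05). Ordered by fold change from the lowest, Kcnv2 was number 9 of the 15742 genes tested.

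The delayed rectifier pores Kcna5, Kcnh2 and Kcnq1 were each lower in all 4 infarcted libraries than in any sham library. Kcna5, the Kv1.5 pore of an ultrarapid current, had 80.4, 95.7, 84.8 and 84.9 CPM in sham and 52.7, 53.3, 41.4 and 24.7 CPM after infarction (log2 fold change -1.01, SE 0.24, adjusted p = 0.0041). Kcnh2 had 279, 255, 269 and 236 CPM in sham and 118, 112, 76.2 and 73.4 CPM after infarction (log2 fold change -1.45, SE 0.24, adjusted p = 0.000379). Kcnq1 had 66.9, 62.6, 74.3 and 71.9 CPM in sham and 32.8, 40.6, 25.7 and 24.2 CPM after infarction (log2 fold change -1.16, SE 0.21, adjusted p = 0.000725). Within the infarcted group, replicate 4 was the lowest of its 4 libraries for all 3 genes. The antisense transcript Kcnq1ot1, which overlaps Kcnq1, was at 3.36 and 3.61 CPM in the same groups, with a log2 fold change of 0.10 (adjusted p = 0.733).

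Kcne1, the small membrane subunit that slows KCNQ1, was the only member called higher. Its sham libraries had 3.09, 4.40, 2.25 and 2.64 CPM (33 to 70 counts) and its infarcted libraries 7.61, 10.9, 2.90 and 5.11 CPM (51 to 179 counts). The groups overlapped, since infarcted replicate 3 lay inside the sham range. The log2 fold change was 1.09 (SE 0.40, adjusted p = 0.0345), and the call was lost without sham replicate 1, 3 or 4, infarcted replicate 1 or 2, or Irx3 vector replicate 2, with values down to 0.69 (adjusted p = 0.137).

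Both inward rectifier members fell. Kcnj2 was at 33.0, 29.3, 37.1 and 35.3 CPM in sham and at 7.77, 13.2, 8.60 and 4.75 CPM after infarction, to 25.4% of the sham mean (log2 fold change -1.98, SE 0.24, adjusted p = 6.48e-05). Kcnj11 was at 288, 304, 330 and 291 CPM in sham and at 171, 175, 143 and 87.2 CPM after infarction (log2 fold change -1.07, SE 0.22, adjusted p = 0.00141). No infarcted library reached the sham range in either gene. Their partners fell as well: Kcnj12, the Kir2.2 pore, changed by -1.09 (adjusted p = 0.000958) and Abcc9, the SUR2 receptor, by -1.44 (adjusted p = 0.00167) on the log2 scale.

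Because the cardiomyocyte markers were lower in the same libraries, the members were also set against them within each library. Scaling to these 14 markers moved the median gene by 1.238 on the log2 scale in this comparison. Kcnv2 (-3.51, adjusted p = 0.000179), Kcnj2 (-0.93, adjusted p = 0.00674) and Kcnip2 (-0.83, adjusted p = 0.00877) were still called lower, and Kcne1 was higher by 2.21 (adjusted p = 0.000919). The other 5 were not called: Kcnd3 at -0.51 (adjusted p = 0.127), Kcnh2 at -0.30 (0.336), Kcnq1 at -0.01 (0.972), Kcnj11 at 0.01 (0.965) and Kcna5 at 0.06 (0.833). Relative to the marker mean, Kcna5 stood at -5.72 ± 0.10 in sham and -5.67 ± 0.24 after infarction, and Kcnj11 at -3.91 ± 0.06 and -3.92 ± 0.27 (log2 units, SD, n = 4). On this scale, led by Kcnv2, the called genes were thus those that moved away from the mean of the markers. The markers did not move together: without this scaling their log2 fold changes ran from -1.83 for Ckm to -0.20 for Mybpc3. A gene that kept to the mean therefore did not keep to each marker.

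**Figure D2:**
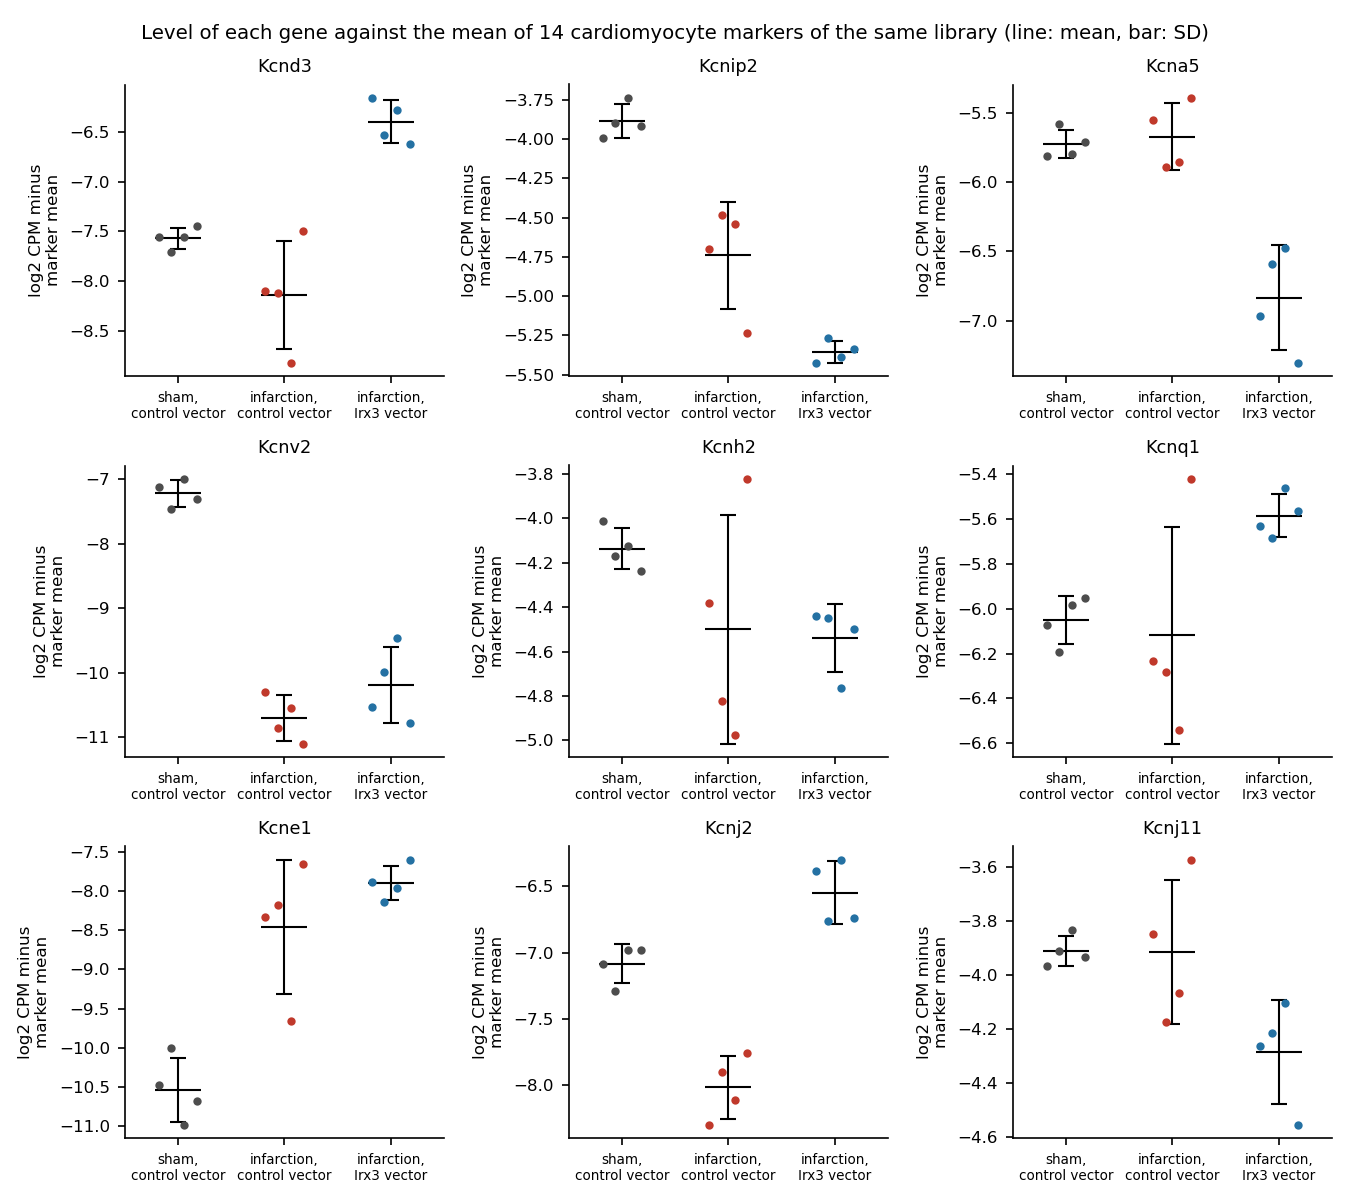
Log2 CPM of each of the 9 genes minus the mean log2 CPM of 14 cardiomyocyte markers in the same library, by group (points: libraries, line: mean, bar: SD, n = 4; axes do not start at 0). After infarction with the control vector, Kcnv2, Kcnj2 and Kcnip2 lie below every sham library and Kcne1 lies above every one, while Kcna5 and Kcnj11 lie around the sham values.

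The second comparison asked what the Irx3 vector changed among infarcted hearts. Kcnd3 and Kcnj2 were higher and Kcna5 lower with the Irx3 vector, 3 of 9 members called, against 49.3% of all genes tested (25.2% higher, 24.1% lower). The share of members called was thus below that of all genes. The median of the members was 0.40 and that of all genes 0.00 on the log2 scale. The groups were apart for Kcnd3 and Kcnj2 alone among the members, while 41.0% of all genes had groups apart. In this comparison the log2 fold change of a gene followed the GC content of its transcripts, with a Spearman correlation of -0.67 across 15182 genes (genes are not independent replicates), against 0.04 for infarction against sham. After GC correction 3 members were again called, Kcnd3 and Kcnq1 higher and Kcna5 lower, against 25.5% of all genes. With scaling to cardiomyocyte markers the same 3 members were called as with TMM scaling, against 13.8% of all genes (10.7% higher, 3.16% lower). Values corrected for GC content are given beside each member, and the part that the mitochondrial share has in them was read only by removing the mitochondrially encoded genes, which left the counts of members called at 9, 3 and 8 in the 3 comparisons.

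Kcnd3 was the member with the largest difference between vectors. Its infarcted libraries with the Irx3 vector had 20.5, 26.8, 21.1 and 29.5 CPM, all above the 5.24 to 11.3 CPM of those with the control vector. The log2 fold change was 1.65 (SE 0.22, adjusted p = 0.000109), to 3.14 times the level with the control vector. It was 1.88 after GC correction (adjusted p = 0.000176) and 1.69 with scaling to cardiomyocyte markers (adjusted p = 0.00295). The 1621 genes within 1 percentage point of the GC content of Kcnd3 (51.9%) had a median of -0.21 with quartiles of -0.55 and 0.14. Kcnd3os went from 0.487 to 1.16 CPM, with a log2 fold change of 1.21 (adjusted p = 0.0543).

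Kcnip2 and Kcnd2, the other genes of the fast transient outward current, were not called between the vectors. Kcnip2 had 34.2, 64.5, 39.3 and 71.9 CPM with the Irx3 vector, within the wide range of the control vector libraries, and its log2 fold change was -0.81 (SE 0.37, adjusted p = 0.0874). Without replicate 4 of the control vector group, which lay at 27.6 CPM, it was -1.10 and called lower (adjusted p = 0.00184). It was -0.39 after GC correction (adjusted p = 0.488). Kcnd2 was at 14.6 ± 5.56 CPM (SD, n = 4), with a log2 fold change of 0.36 (adjusted p = 0.306).

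Kcna5 fell further with the Irx3 vector, to 11.7, 25.7, 18.5 and 18.3 CPM. Of these, 3 libraries lay below all 4 control vector libraries, and replicate 2, at 25.7, lay just above replicate 4 of the control vector group, at 24.7. The log2 fold change was -1.21 (SE 0.25, adjusted p = 0.00141). It was -0.81 after GC correction (adjusted p = 0.0317) and -1.15 with scaling to cardiomyocyte markers (adjusted p = 0.0118).

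Kcnj2 was at 17.5, 22.8, 20.9 and 27.1 CPM with the Irx3 vector, all above the highest control vector library, with a log2 fold change of 1.37 (SE 0.24, adjusted p = 0.000592). This call did not hold after GC correction, where the value was 0.36 (adjusted p = 0.149). The transcripts of Kcnj2 have the lowest GC content of the members, 41.2%, and the 811 genes within 1 percentage point of it had a median of 1.04 with quartiles of 0.66 and 1.40. With scaling to cardiomyocyte markers Kcnj2 was at 1.48 (adjusted p = 0.00292). Kcnj12, its family partner, differed by 0.07 (adjusted p = 0.788), and by 0.67 after GC correction (adjusted p = 0.0214).

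The remaining 5 members were not called. Kcnq1 had 29.6, 48.3, 37.3 and 61.4 CPM with the Irx3 vector, overlapping the control vector libraries (log2 fold change 0.52, SE 0.21, adjusted p = 0.0566), and 1.05 after GC correction (adjusted p = 0.00657). It was also called higher without replicate 2 of the control vector group (0.68, adjusted p = 0.0152), and without Irx3 vector replicate 1 (0.67, adjusted p = 0.0123) or 3 (0.60, adjusted p = 0.0439). Kcnq1ot1 rose from 3.61 to 6.98 CPM (log2 fold change 0.95, adjusted p = 0.00276), but was at -0.23 after GC correction (adjusted p = 0.476). Kcnh2 had 67.7, 114, 60.5 and 129 CPM (log2 fold change -0.03, SE 0.24, adjusted p = 0.915), and 0.60 after GC correction (adjusted p = 0.11). Kcnj11 had 76.4, 134, 95.9 and 124 CPM (-0.42, SE 0.22, adjusted p = 0.119), and 0.17 after GC correction (adjusted p = 0.643). It was called lower without control vector replicate 4 (-0.60, adjusted p = 0.0111). Abcc9, the receptor that pairs with Kcnj11, rose by contrast from 160 ± 79.7 to 365 ± 55.8 CPM (SD, n = 4), a log2 fold change of 1.19 (adjusted p = 0.00503), and of 0.92 after GC correction (adjusted p = 0.0235). Kcnv2 stayed low at 0.938, 2.39, 2.29 and 1.60 CPM (19 to 50 counts), with a log2 fold change of 0.40 (SE 0.38, adjusted p = 0.396), and 0.27 after GC correction (adjusted p = 0.621). Kcne1 had 6.17, 8.76, 6.59 and 14.9 CPM, with a log2 fold change of 0.45 (SE 0.38, adjusted p = 0.339), and 0.79 after GC correction (adjusted p = 0.147).

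**Figure D3:**
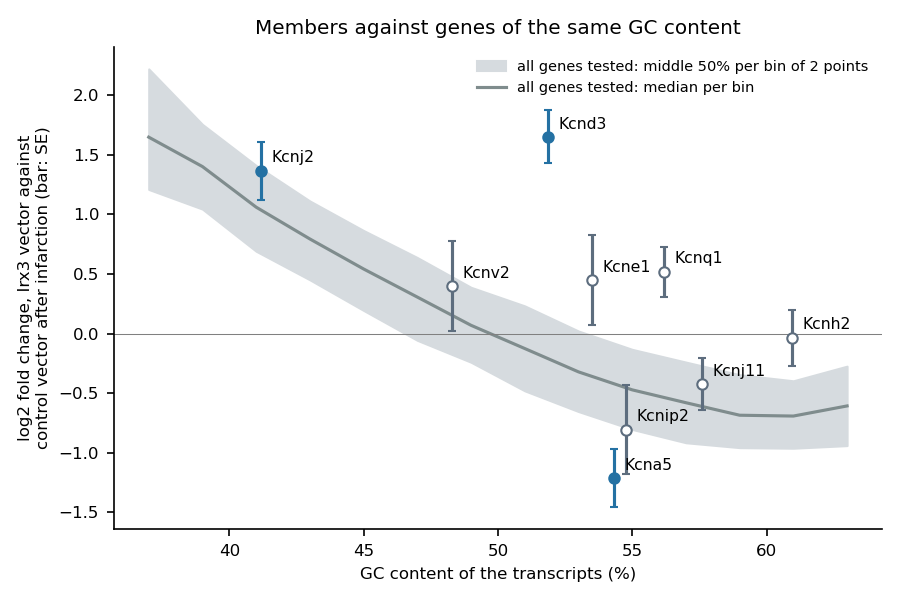
Log2 fold change of the 9 genes between the Irx3 vector and the control vector after infarction (points, bar: SE; filled where the adjusted p is under 0.05) against the GC content of their transcripts in percent; the line and band give the median and the middle 50% of all genes tested with a GC value, in bins of 2 percentage points. Kcnd3 lies far above the band at its GC content, while Kcnj2, at 1.37, lies within the band at its own.

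Infarcted hearts with the Irx3 vector were also compared with sham hearts under the control vector, a contrast in which surgery and vector both differ. It shares its libraries with the first 2 comparisons, so the values are set side by side and are not independent. In it 7 members were lower and 1 higher, against 62.9% of all genes called, 27.7% lower and 35.2% higher, and the median was -1.49 for the members and 0.12 for all genes. With scaling to cardiomyocyte markers 3 were lower (2.19% of all genes) and 2 higher (63.6%, of 65.8% called), and Kcnq1 (0.46) and Kcnj2 (0.54) changed sign without being called. Kcnd3 was the 1 member not called, at 24.5 ± 4.38 against 24.0 ± 1.55 CPM (SD, n = 4; log2 fold change 0.03, SE 0.21, adjusted p = 0.917). With scaling to cardiomyocyte markers it was 1.18 above sham (adjusted p = 0.00321). The groups did not overlap for the 8 called members, against 60.8% of all genes.

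Kcnip2 and Kcna5 were lower against sham with the Irx3 vector by more than with the control vector: the log2 fold changes were -2.56 (SE 0.39, adjusted p = 0.000106) against -1.75 for Kcnip2, and -2.22 (SE 0.25, adjusted p = 1.25e-05) against -1.01 for Kcna5, and the test of that difference is the comparison between vectors, which called Kcna5 (adjusted p = 0.00141) but not Kcnip2 (adjusted p = 0.0874). The other values were -4.08 for Kcnv2 (adjusted p = 2.4e-06), -1.50 for Kcnj11 (7.89e-05), -1.49 for Kcnh2 (0.000164), -0.64 for Kcnq1 (0.0166), -0.61 for Kcnj2 (0.0358) and 1.54 for Kcne1 (0.00418). For Kcne1 all 4 libraries with the Irx3 vector lay above all 4 sham libraries. Kcnh2 (-0.40, adjusted p = 0.207) and Kcnj11 (-0.37, adjusted p = 0.173) lost their calls with scaling to cardiomyocyte markers. The 2 calls closest to the threshold also depended on the processing. Kcnq1 was at -0.10 after GC correction (adjusted p = 0.731). Kcnj2 lost its call without sham replicate 1, 3 or 4 or Irx3 vector replicate 1 or 3 (adjusted p up to 0.0828), and was at -1.57 after GC correction (adjusted p = 2.3e-05). After that correction 7 members were called, against 54.0% of all genes.

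**Figure D4:**
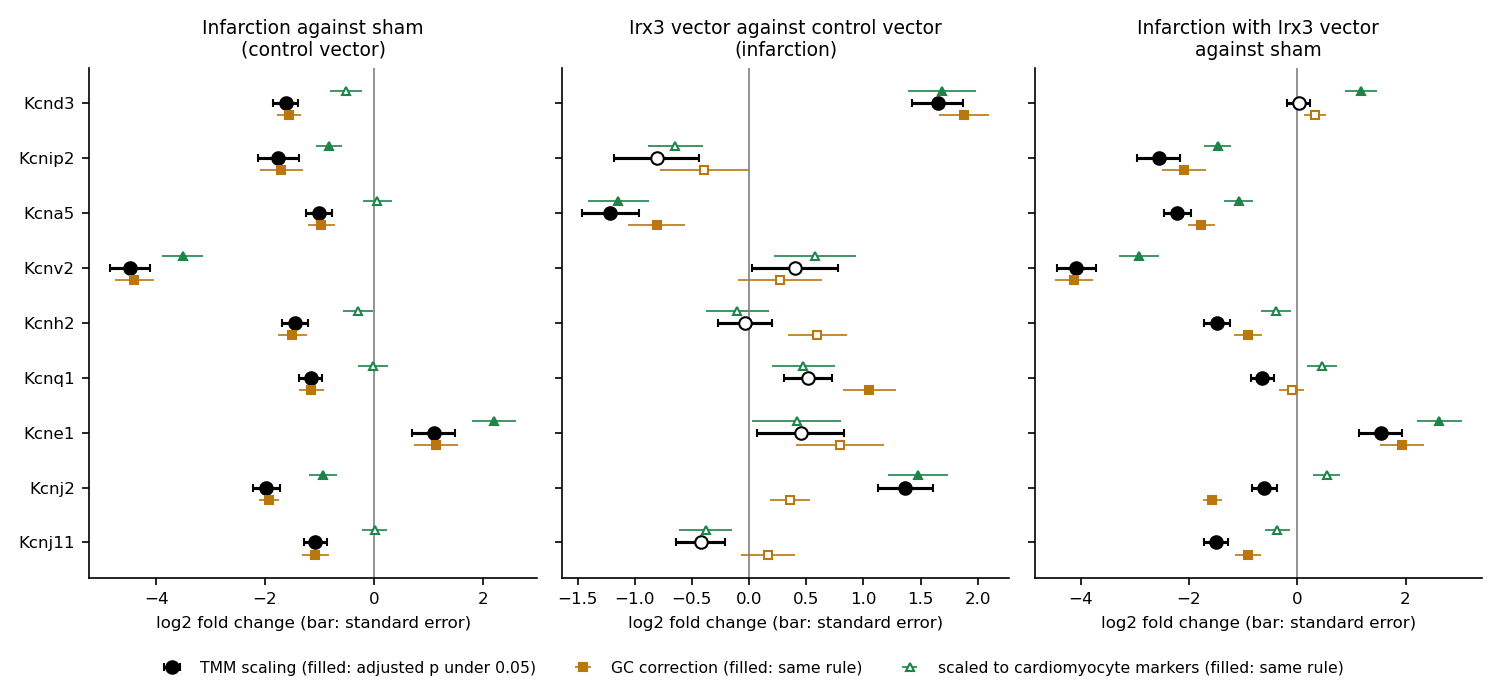
Log2 fold changes of the 9 genes in the 3 comparisons (bar: SE), from TMM-scaled counts (circles), after GC correction (squares) and with scaling to cardiomyocyte markers (triangles); filled symbols have an adjusted p under 0.05, and the axes differ between panels. In both panels against sham the cardiomyocyte scaling shifts every gene towards higher values and takes Kcna5 and Kcnj11 (control vector) and Kcnq1 and Kcnj2 (Irx3 vector) across 0, while between the vectors the GC correction takes Kcnj2 from 1.37 to 0.36.

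Pairs of channel genes were then compared as ratios of counts within a library, which do not depend on library scaling. Kcna5 and Kcnd3 are pores of different currents, so their ratio is not one of subunits of 1 channel. For 6 ratios in 3 comparisons, the exact permutation test (two-sided, 70 assignments, smallest possible p 0.029) was run 18 times, and every ratio whose groups did not overlap had p = 0.0286, adjusted 0.0468. In the sham libraries there were 11.9, 14.1, 14.2 and 11.6 counts of Kcnip2 per count of Kcnd3. After infarction with the control vector there were 10.6, 12.5, 19.7 and 4.85, and with the Irx3 vector 1.66, 2.41, 1.86 and 2.44. The ratio of Kcnip2 to Kcnd3 counts was thus scattered around the sham values after infarction (log2 difference -0.28, exact p = 0.657). It was lower in every library with the Irx3 vector than in any other (log2 difference from the control vector -2.36). It is a ratio of transcripts, not of proteins, and leaves out the other pore gene, Kcnd2.

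Kcnd2 per Kcnd3 was 1.25 ± 0.14 in sham, 1.54 ± 0.59 after infarction with the control vector and 0.582 ± 0.16 with the Irx3 vector (SD, n = 4). The ratio was lower in every library with the Irx3 vector than in any other, with a log2 difference of -1.39 from the control vector. Per kilobase of exon, Kcnd2 (2.83 CPM) and Kcnd3 (2.55 CPM) overlapped with the Irx3 vector, so the ratio of counts gives no order of the 2 pores. Kcna5 per Kcnd3 was 3.63 ± 0.50, 5.72 ± 1.60 and 0.757 ± 0.19, a log2 difference of -2.91 between the vectors. After GC correction the differences of the 3 ratios to Kcnd3 kept their sign and their groups stayed apart. These ratios share Kcnd3 as the denominator, so its own rise between the vectors (log2 fold change 1.65) is in each, and they are not 3 separate results.

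Kcne1 per Kcnq1 rose from 0.0459 ± 0.02 in sham to 0.206 ± 0.07 after infarction with the control vector (SD, n = 4; log2 difference 2.17), and was 0.202 ± 0.03 with the Irx3 vector (log2 difference between vectors 0.03, exact p = 0.943). All 4 infarcted libraries of each vector lay above the sham range, so the infarcted hearts had more Kcne1 transcript per Kcnq1 transcript.

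Kcnj11 per Abcc9 was 0.706 ± 0.08 in sham, 0.997 ± 0.26 after infarction with the control vector and 0.291 ± 0.03 with the Irx3 vector, where all 4 libraries lay below all others (log2 difference between vectors -1.74). The fold changes of Kcnj11 and Abcc9 between the vectors lay closer together after GC correction, so the size of this difference depended on the correction. Which cells of the tissue the transcripts came from was not tested. Kcnj2 per Kcnj12 was 0.546 ± 0.08, 0.305 ± 0.16 and 0.754 ± 0.16, with a log2 difference between vectors of 1.41. After GC correction this last difference was -0.27 (exact p = 0.229), so its direction depended on the correction.

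**Figure D5:**
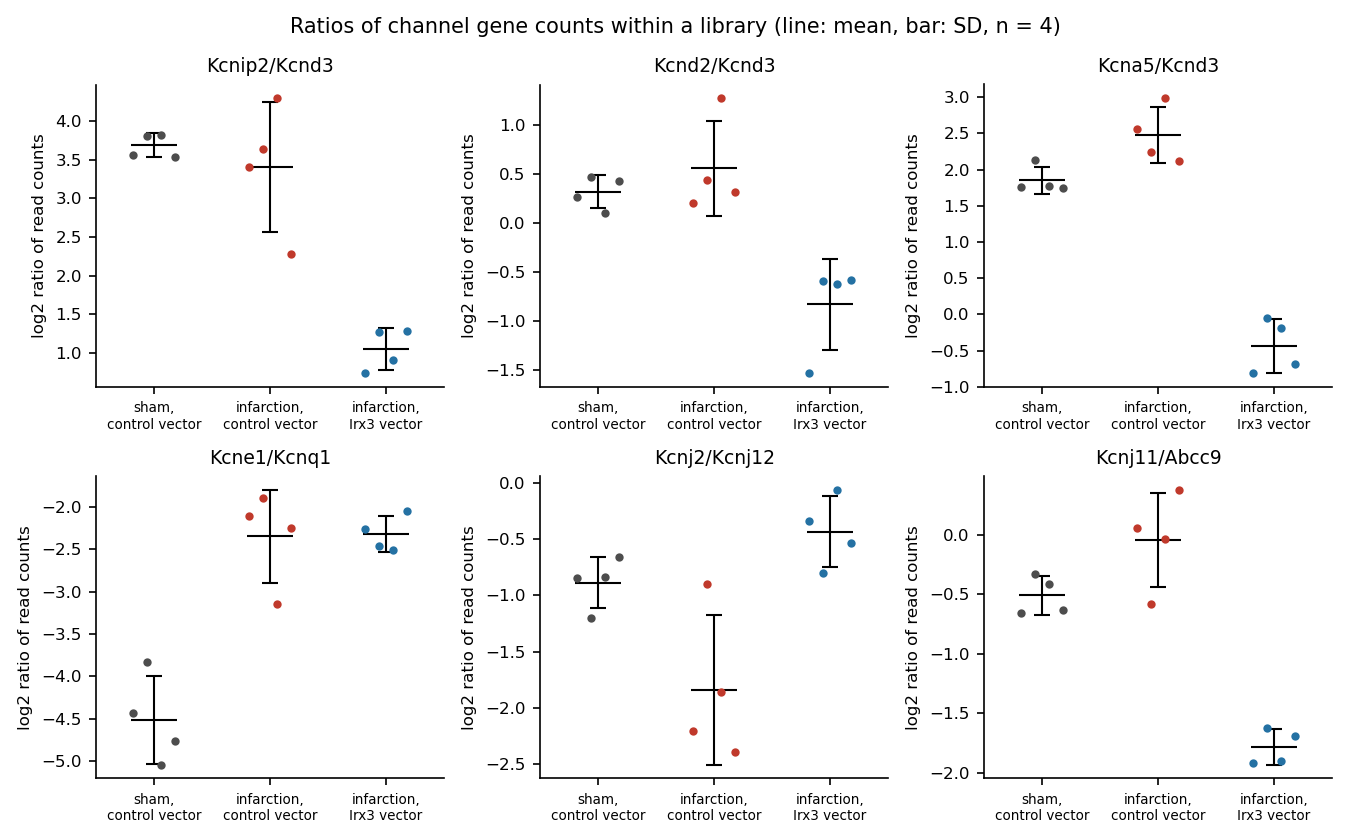
Log2 ratio of read counts of 2 channel genes within each library, by group (line: mean, bar: SD, n = 4; a log2 axis, not corrected for gene length or GC content). Kcnip2, Kcnd2 and Kcna5 relative to Kcnd3, and Kcnj11 relative to Abcc9, are lower in all 4 libraries with the Irx3 vector than in the other 8, and Kcne1/Kcnq1 separates both infarcted groups from sham.

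Other potassium channel genes were read from 4 lists of the family, with 43 genes tested. After infarction with the control vector 19 of them were lower and 13 higher, against 22.4% and 26.3% of all genes. With scaling to cardiomyocyte markers 4 were lower and 18 higher, against 2.07% and 69.1% of all genes. The 18 of 43 were fewer than that share gives, but the scaling itself moved the median gene by 1.238 on the log2 scale. No result about the family is read from these counts. Between the vectors 9 were higher and 9 lower with Irx3, where 49.3% of all genes were called, and after GC correction 9 were higher and 4 lower, where 25.5% were. Among 17 further voltage-gated pore genes tested, of 31 in the table, 10 were lower (22.4% of all genes) and 4 higher (26.3%) after infarction with the control vector, with a median log2 fold change of -0.90. Besides Kcnd2, they included Kcna7, which had the smallest p (15.7 to 4.50 CPM, log2 fold change -1.81, adjusted p = 0.000102). With the Irx3 vector 3 were higher and 2 lower than with the control vector (25.2% and 24.1% of all genes). Kcna4, the pore of the slow transient outward current, went from 1.19 to 3.40 CPM (1.51, adjusted p = 0.00664), but was at 0.99 after GC correction (adjusted p = 0.0694).

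Of 9 other inward rectifier and ATP-sensitive channel genes tested, 6 were lower and 2 higher after infarction with the control vector (22.4% and 26.3% of all genes). Kcnj3 and Kcnj5, the pores of the acetylcholine-activated current, fell from 76.2 to 13.2 CPM (log2 fold change -2.54, adjusted p = 0.000181) and from 69.5 to 23.6 CPM (-1.56, adjusted p = 8.39e-05). Kcnj3 is also on the list of atrial markers. Kcnj15 rose from 0.545 to 41.2 CPM (6.23, adjusted p = 5.67e-05). With the Irx3 vector 4 of the 9 were higher and 2 lower than with the control vector (25.2% and 24.1% of all genes). Kcnj14, the Kir2.4 pore, rose from 3.94 to 17.4 CPM (2.14, adjusted p = 6.48e-05; 2.80 after GC correction), and Kcnj5 from 23.6 to 61.0 CPM (1.37, adjusted p = 0.000179; 1.54 after GC correction). Abcc8, the SUR1 receptor, was lower by -0.73 on the log2 scale (adjusted p = 0.00436), and at -0.15 after GC correction (adjusted p = 0.546).

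Of 4 auxiliary subunit genes tested, of 11 in the list, Kcne4 (4.07 to 20.7 CPM, log2 fold change 2.34, adjusted p = 0.00164) and Kcnab2 (1.01, adjusted p = 0.0181) were higher after infarction and none was lower. The 50% called were near the 48.7% of all genes. Kcnip3 was lower with the Irx3 vector than with the control vector (-1.07, adjusted p = 0.00136), and at -0.58 after GC correction (adjusted p = 0.0908). Of 13 two-pore and calcium-activated channel genes tested, 5 were higher and 3 lower after infarction, near the shares of all genes (26.3% and 22.4%). The 3 lower were Kcnn1 (-1.39, adjusted p = 4.65e-05), Kcnn2 (-2.06, adjusted p = 0.00022) and the abundant Kcnk3 (494 to 207 CPM, -1.26, adjusted p = 0.00048). Kcnn2, a small-conductance channel, was higher with the Irx3 vector than with the control vector (3.21 to 9.13 CPM, 1.51, adjusted p = 0.0015; 1.72 after GC correction).

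The 12 genes of depolarizing currents (sodium, calcium and pacemaker channels) were read for comparison. After infarction with the control vector 6 were lower and 1 higher (22.4% and 26.3% of all genes), with a median log2 fold change of -0.52. Between the vectors 5 were higher with Irx3 and 2 lower (25.2% and 24.1% of all genes). The 58.3% called in each comparison were near the 48.7% and 49.3% of all genes. By direction, the calls after infarction were mostly lower, as were those of the members. Those higher with Irx3 were led by the T-type calcium channel genes Cacna1h (16.8 to 60.9 CPM, 1.86, adjusted p = 6.26e-05; 2.53 after GC correction) and Cacna1g (24.8 to 57.9 CPM, 1.22, adjusted p = 7.23e-05; 1.85 after GC correction). Scn2b was lower (2.46 to 0.575 CPM, -2.08, adjusted p = 0.000218), a value not corrected for GC content. Its libraries with the Irx3 vector held only 17, 11, 6 and 8 counts.

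Likeness in pattern was measured as the mean absolute difference over the 12 libraries between log2 CPM values centred on each gene's own mean, and is a description over libraries that share 3 groups. Among the members the smallest differences were between Kcnh2 and Kcnj11 (0.222), Kcnd3 and Kcnj2 (0.327), Kcnh2 and Kcnq1 (0.330) and Kcna5 and Kcnj11 (0.341), and the largest was between Kcnv2 and Kcne1 (2.49). The levels used for likeness were not corrected for GC content. After GC correction Kcnd3 was called between the vectors and Kcnj2 was not. Of 11172 genes searched, those nearest to Kcnd3 were Ppp1r9a (0.156) and Polq (0.175), and those nearest to Kcnj2 were Dnajc28 (0.110) and Epha4 (0.113). Kcnip2 lay nearest to Ckm (0.157), the muscle creatine kinase, Kcna5 to Lipe (0.157), the hormone-sensitive lipase, and Kcnh2 to Dhrs11 (0.138). Kcnq1 lay nearest to Chchd7 (0.0893), Kcnj11 to Pex10 (0.0798) and Kcne1 to Uck2 (0.333). For Kcnv2 the nearest gene searched, A530016L24Rik, was 0.530 away. Genes of lower mean level were not searched, and the low counts of Kcnv2 after infarction (8 to 50 per library) add counting error to its distances.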

How the data were processed

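The authors deposited unnormalised gene counts, with a column for each of 12 libraries of polyadenylated left ventricle RNA. Reads were trimmed with fastp and placed on build GRCm39, per the submitters' processing notes. Not given in the sources used here are the aligner, counter, annotation and strand. All 12 libraries are in 1 batch, per the labels, and 882 repeated symbols held 0.00113% of counts.

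Counts were tested in edgeR 4.0.16 (R 4.3.3) by the robust quasi-likelihood test, after filterByExpr and with TMM factors, 1 term per group over all libraries (9 residual degrees of freedom). Calls are at an adjusted p (Benjamini-Hochberg, over 15742 genes) under 0.05. SEs are the fold change over the root of the F statistic. CPM used TMM factors, and log2 CPM a prior count of 1. Counting error adds most where counts are low, as for Kcnv2 after infarction and Kcne1. GC correction used an offset per library from a spline on transcript GC content (6 degrees of freedom; GENCODE M21 on GRCm38, matched by symbol, 96.4% of genes tested). Exon lengths came from the same annotation, and RefSeq promoters from GRCm38.p6. Scaling to cardiomyocyte markers set the mean log2 CPM of the 14 genes equal in all libraries. Ratios were tested with exact permutation tests in Python 3.11.15. The fits were tested on simulated data. Alternatives also covered DESeq2 1.42.0, other factors and filters, and libraries left out.

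The members and lists were chosen with earlier results of these data known. Named besides the 9 members are their 3 nearest genes by pattern, partners of the ratios, antisense genes, and the genes with the smallest p of each list. Replicate numbers did not pair the libraries. A planned ratio and some genes that the rule names are not reported here. Kcne5 of the auxiliary list was not matched by symbol.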

Additional observations from a re-analysis of the deposited data

Results flagged for a closer look

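In 45 groups of 4 libraries (the log2 CPM of the 9 genes and the 6 log2 ratios, in 3 groups each), a library was marked when its gap to the nearest other library was too large a part of the range of its group by Dixon's test at the 95% level, which chance gives in about 1 of 20 groups; 3 groups had such a library. For Kcnv2 after infarction with the control vector, replicate 4 was lowest and its gap was 0.855 of the range. This library had 8 counts of Kcnv2 and the lowest cardiomyocyte marker level of the 12 libraries. For Kcnd2 relative to Kcnd3 with the Irx3 vector, replicate 1 was lowest, at 0.346 against 0.651, a gap of 0.962 of the range. For Kcna5 relative to Kcnd3 in sham, replicate 2 was highest, at 4.38 against 3.41, a gap of 0.927 of the range.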

How the results depend on the processing

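Scaling to cardiomyocyte markers changed most: it called 4 members for infarction against sham and 5 for the Irx3 vector against sham, in place of 9 and 8, and turned the sign of Kcna5 (0.063) and Kcnj11 (0.012) in the first and of Kcnq1 (0.46) and Kcnj2 (0.54) in the other. It shifted the median gene by 1.238, -0.035 and 1.201 in the 3 comparisons. Between the vectors it called 8 of 43 other potassium channel genes in place of 18. The share of all genes called there went from 49.3% to 13.8%. GC correction with the replicate block called 9 of the 43, while 1428 of all 15182 genes were called higher and 1297 lower. GC correction alone turned Kcnj2 per Kcnj12 to -0.27 between the vectors and to -1.08 for the Irx3 vector against sham. The cause of these changes was not tested. Leaving out 1 library at a time gave 8 to 9, 3 to 5 and 7 to 8 members called, and 28 to 36, 13 to 22 and 24 to 33 other genes. The 5 came without replicate 4 of the infarcted control vector group, when Kcnip2 (-1.10) and Kcnj11 (-0.60) were also called between the vectors. Leaving out both infarcted libraries numbered 4 also gave 5. DESeq2 called Kcnip2 between the vectors (-0.83, adjusted p = 0.0479), upper-quartile factors called Kcnq1 (0.56, adjusted p = 0.0417), and without a filter on low counts Kcne1 lost its call for infarction against sham (adjusted p = 0.0577). Same-numbered libraries did not deviate together (correlations -0.421 to 0.097 over 12 pairs), so the numbers do not pair them. With the replicate block 9, 3 and 7 members were called, the lost call being Kcnj2 for the Irx3 vector against sham (-0.62, adjusted p = 0.0591), and the paired test of a ratio could not give a p below 0.125. Depth limited Kcnv2 most, with 8 to 50 counts per infarcted library.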

Other observations

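Kcnj14 rose in both steps, from 1.56 ± 0.18 CPM in sham to 3.94 ± 1.35 after infarction with the control vector and 17.4 ± 4.28 with the Irx3 vector (SD, n = 4). Its log2 fold change from sham was 1.34 (adjusted p = 0.00186) with the control vector and 3.48 (adjusted p = 1.75e-06) with the Irx3 vector, while Kcnj2 and Kcnj12, which like it encode strong inward rectifier pores, were lower than sham in both. Kcnj15, an inward rectifier gene at 0.545 CPM in sham, was at 41.2 ± 15.3 CPM after infarction with the control vector and 14.5 ± 14.3 with the Irx3 vector (SD, n = 4), and differed between the vectors by -1.49 on the log2 scale (adjusted p = 0.0368), with overlapping libraries. Fibroblast markers were high in the same infarcted libraries, and their part in the Kcnj15 values was not tested. Kcna4 was 2.49 above sham on the log2 scale with the Irx3 vector (3.40 CPM with a range of 2.37 to 4.56, adjusted p = 0.000262), in the group in which Kcnd3 was not called against sham. The sham libraries held only 16, 5, 10 and 4 counts of Kcna4, and its value was not corrected for GC content. A link between Kcna4 and Kcnd3 was not tested.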
